A study of Mus musculus with 3 samples.

Results

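The genes of 7 metabotropic glutamate receptors were examined in ribosome-bound RNA of the dentate gyrus. The choice was by family name and not by any measured value, though earlier results of these data were known. They are Grm5 of receptor group I, Grm2 and Grm3 of group II, and Grm4, Grm6, Grm7 and Grm8 of group III. All 7 had a row among the 32531 genes of each count file. The mice were adult and untreated, of strain C57BL/6J, and all carried the Penk-EGFP/Rpl10a transgene of line NIDA186, in which regulatory DNA of Penk drives a ribosomal protein fused to EGFP. Pulling down the tagged ribosomes (TRAP) brings along the mRNA they were translating, and the submitters describe the cells as neurons. The 3 libraries, replicates 1 to 3, form 1 group of immunopurified samples, with 5348761, 19195559 and 11059982 counts on genes. Nothing in the labels ties them to separate animals, so p-values measure the spread between these samples, which may be technical in part. With immunopurified libraries alone, a level shows what the purified RNA held and not an enrichment in Penk cells. In such bulk RNA, fewer cells of a type and less RNA per cell cannot be told apart.

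Metabotropic glutamate receptors are membrane receptors that answer glutamate through G proteins rather than by opening a pore. Group I receptors couple to Gq and phospholipase C and sit mainly beside postsynaptic sites, bound to Homer scaffolds. Groups II and III couple to Gi/o proteins, lower cyclic AMP and mostly restrain transmitter release from axon terminals. In the hippocampus, mGluR2 is known from the mossy fibre axons of granule cells, mGluR3 from neurons and astrocytes, mGluR7 from presynaptic active zones, and mGluR6 is the glutamate receptor of ON bipolar cells in the retina.

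Among the 7 genes 3 are shown by the DNA around their start sites: the group II pair, whose levels went opposite ways between libraries, and Grm6, which had no count. Each is a window of 300 bases from RefSeq on GRCm38.p6, with 250 bases before and 50 after the annotated start, written 5′ to 3′ on the gene's strand. Capitals mark GGGCGG or its reverse complement CCGCCC, the letters of a GC box. The table of these windows had entries for 5 of the 7 members. Grm2 lies at chr9:106656060-106656359 on the minus strand, Grm3 at chr5:9725303-9725602 on the minus strand, and Grm6 at chr11:50850435-50850734 on the plus strand. The Grm3 window lies wholly outside the gene span given below, which ends at 9725170. The windows follow RefSeq and the spans GENCODE, and the sources differ on this start.
Grm2: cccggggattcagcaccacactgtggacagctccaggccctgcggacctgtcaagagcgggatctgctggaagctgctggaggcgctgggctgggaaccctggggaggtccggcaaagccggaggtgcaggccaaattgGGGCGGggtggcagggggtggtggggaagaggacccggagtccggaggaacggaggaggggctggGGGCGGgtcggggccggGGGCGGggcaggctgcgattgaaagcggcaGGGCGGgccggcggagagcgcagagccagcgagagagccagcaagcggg
Grm3: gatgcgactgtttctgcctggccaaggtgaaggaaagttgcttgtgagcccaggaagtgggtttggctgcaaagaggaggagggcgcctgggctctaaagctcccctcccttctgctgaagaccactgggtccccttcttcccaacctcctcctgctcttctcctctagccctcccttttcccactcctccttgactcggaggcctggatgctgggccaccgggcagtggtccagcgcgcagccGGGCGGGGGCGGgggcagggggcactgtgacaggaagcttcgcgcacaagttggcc
Grm6: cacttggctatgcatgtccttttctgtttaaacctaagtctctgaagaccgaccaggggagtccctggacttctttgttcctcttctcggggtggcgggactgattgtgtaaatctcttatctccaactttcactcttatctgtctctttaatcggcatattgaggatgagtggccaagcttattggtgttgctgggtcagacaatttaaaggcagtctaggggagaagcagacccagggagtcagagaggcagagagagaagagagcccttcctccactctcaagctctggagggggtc
The Grm2 window held 4 GC box matches and 22 CG dinucleotides, the Grm3 window 2 adjoining matches and 11 dinucleotides, and the Grm6 window no match and 4 dinucleotides. Of all 32851 windows in the table, 35.7% held a GC box match on either strand, and the median window had 7 CG dinucleotides. TATAAA or TTTATA was in none of these 3 windows and in 13.6% of all windows. Of the members not shown, Grm7 had windows with 10 and 15 CG dinucleotides and 1 match each. Grm8, low in every library, had windows with 33, 10 and 2 dinucleotides and 1, 0 and 0 matches. These matches describe letters in a window and show no binding.

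Counts were scaled with TMM factors to counts per 1000000 (CPM), which make most genes comparable between libraries, and divided by the length of all annotated exons in kb where genes are compared with each other. The genes with reads on this scale were, from high to low, Grm5, Grm7, Grm2, Grm3, Grm8 and Grm4, and Grm6 had none. Of the 7 members 5 passed the filter on low counts, which in effect asks for expression in every library; Grm4 and Grm6 did not. The level of a tested gene is its difference on the log2 scale, per kb, from the median tested gene of the same library. Over the 3 libraries it is fitted to the counts by edgeR and is not the mean of the log2 values. A call asks for more than 1 log2 unit (edgeR, adjusted p below 0.05). Of 8162 tested genes 13.5% lay above the median gene and 2.9% below by this rule; among the 5 tested members 1, Grm5, lay above and 1, Grm8, below. The median level was 0.42 over the tested members and 0.22 over all tested genes, so the members' median lay close to that of all genes.

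**Figure D1:**
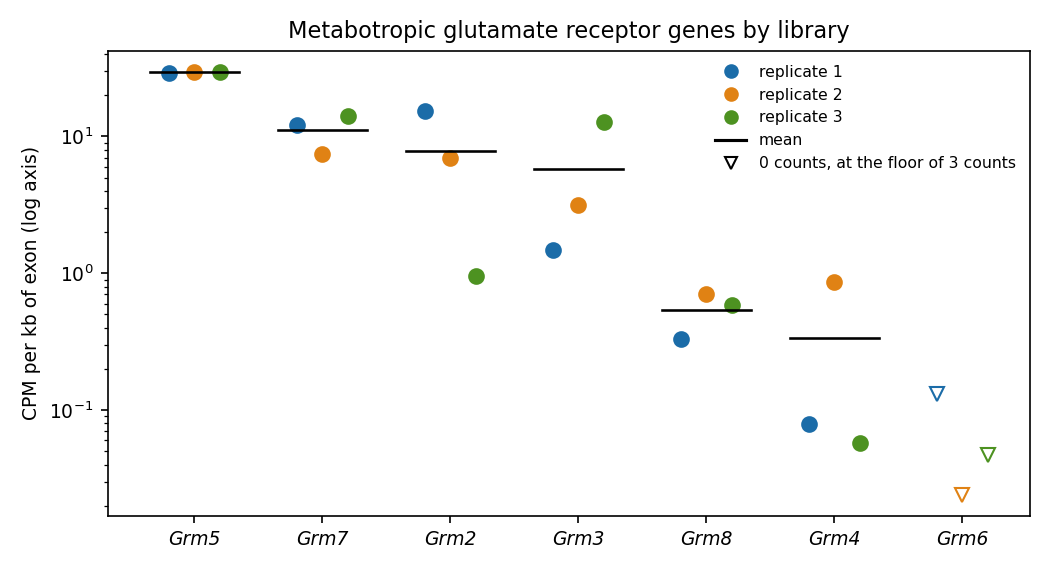
Level of each member in CPM per kb of exon (log axis) in replicates 1 to 3 (points), with the mean (line). Triangles stand at the floor of 3 counts for Grm6, which had 0 counts in every library. The 3 points of Grm5 lie at nearly the same height (29.0 to 29.6), while those of Grm2 and Grm3 spread in opposite order.

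Grm5, the Gq-coupled receptor gene, led the family in all 3 libraries. The gene lies on chromosome 7 (87584168 to 88134907, plus strand, GRCm38) and its exons add up to 10.2 kb. It had 1260, 6947 and 3541 counts in replicates 1 to 3, or 29.0, 29.6 and 29.6 CPM per kb. Its level was 2.30 above the median gene (SE of the fit 0.35, n = 3, adjusted p = 0.0127, edgeR), above it in 3 of 3 libraries, and 87.5% of tested genes had a lower one. The SD of its levels in the 3 libraries was 0.088. Leaving out replicate 2 ended the call (2.25, adjusted p = 0.130), as did leaving out replicate 3 (2.44, adjusted p = 0.0677, edgeR). Both fits rest on the 2 libraries left.

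Grm5 also varied less between libraries than nearly every other gene on this scale. Not corrected for length it had 297, 303 and 303 CPM, a coefficient of variation of 1.17%, against a median of 60.9% over tested genes; only 2 of 8162 tested genes had a smaller one. Its counts did not vary beyond sampling noise (Poisson chi-square 0.471, adjusted p = 0.791), whereas 97.5% of tested genes did, the other 4 tested members among them. That steadiness depends on the scaling. With DESeq2 size factors Grm5 had 343, 270 and 295 CPM, a coefficient of variation of 12.3%, and varied beyond sampling noise (adjusted p = 2.0e-15, Poisson chi-square). With library totals alone it had 236, 362 and 320 CPM and a coefficient of 21.0%. Under those scalings 2.41% and 7.91% of tested genes had a smaller coefficient.

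**Figure D2:**
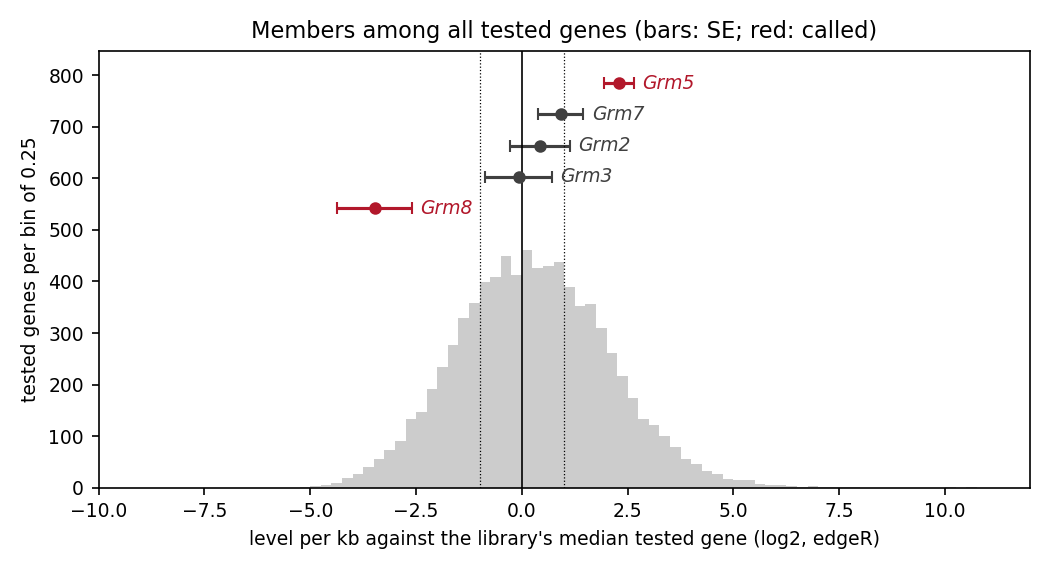
Level per kb of the 5 tested members against the library's median tested gene (log2; points with SE of the edgeR fit) above the distribution of all 8162 tested genes (grey, genes per bin). Dotted lines mark the threshold of 1 log2 unit; Grm5 at 2.30 and Grm8 at -3.48 are called (red), and Grm7, Grm2 and Grm3 lie within the bulk of genes.

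The group II genes encode receptors of like pharmacology, and the order of the 2 genes in replicate 3 was the reverse of that in replicates 1 and 2. Grm2 (chromosome 9, 106643095 to 106656082, minus strand) had 319, 778 and 55 counts, or 15.4, 6.94 and 0.962 CPM per kb. Replicate 3 was lowest and replicate 1 highest, 15.98-fold apart. Grm3 (chromosome 5, 9485541 to 9725170, minus strand) had 19, 220 and 452 counts, or 1.47, 3.15 and 12.7 CPM per kb. Here replicate 1 was lowest and replicate 3 highest, 8.63-fold apart, the reverse of Grm2. Both varied beyond sampling noise (Poisson chi-square, adjusted p = 5.9e-121 for Grm2 and 2.4e-90 for Grm3), as 97.5% of tested genes did.

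Within a library the ratio of the pair needs no scaling. Grm2 made up 94.4% of the pair's counts in replicate 1 (95% interval 91.4 to 96.6), 78.0% in replicate 2 (75.3 to 80.5) and 10.8% in replicate 3 (8.28 to 13.9; exact Clopper-Pearson, counting error only). Per kb, Grm2 was 10.5-fold higher than Grm3 in replicate 1 and 2.20-fold higher in replicate 2, and Grm3 was 13.2-fold higher than Grm2 in replicate 3. Their sum varied less, at 16.8, 10.1 and 13.6 CPM per kb. Neither gene's mean level passed the test against the median gene, at 0.42 for Grm2 (SE 0.71, adjusted p = 0.996) and -0.080 for Grm3 (SE 0.79, adjusted p = 1, edgeR). These means join libraries that differ too much for either to stand for all 3. Of the Grm2 exon bases, 470 overlap the opposite-strand gene Gm28111, and the strand setting of the counting was not given in the sources used here, so reads of the 2 genes cannot be told apart there.

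Cell type markers were read beside this switch, since both receptors are known from particular cells. The 10 granule cell markers summed to 1761, 2011 and 1071 CPM in replicates 1 to 3, led by Rfx3 at 473 ± 135 and Prox1 at 464 ± 199 CPM (SD, n = 3). Calb1, a calcium-binding protein of mature granule cells, had 2, 1350 and 121 counts (chosen after its values were seen), and C1ql3 was at 0 in replicate 1. The 10 astrocyte markers summed to 3095, 1394 and 3292 CPM, led by Slc1a2 at 2299 ± 928 and Slc1a3 at 105 ± 68.9 CPM, with Gja1 at 0 in replicate 1. The granule cell sum, like Grm2, was lowest in replicate 3, but was highest in replicate 2. The astrocyte sum, like Grm3, was highest in replicate 3, but was nearly as high in replicate 1, where Grm3 was lowest. Slc1a2 alone makes up most of that sum: the other 9 markers summed to 221, 166 and 496 CPM, an alternative chosen after seeing the data.

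Of the other 7 lists, 3 had sums that were lowest in replicate 1 and highest in replicate 3, as Grm3 was, and 4 did not. The 6 markers of oligodendrocyte precursors summed to 17.4, 36.5 and 80.4 CPM, led by Olig1 at 13.5 ± 16.6 and Cspg4 at 12.5 ± 14.4 CPM. The 10 of CA1 and CA3 pyramidal cells summed to 257, 548 and 854 CPM, led by Dkk3 at 404 ± 215 and Wfs1 at 54.0 ± 34.7 CPM. The 7 of microglia summed to 3.30, 8.95 and 23.3 CPM, led by P2ry12 and Csf1r, with 6 of 7 at 0 in replicate 1. The 4 lists with another order follow. Interneuron markers summed to 521, 339 and 459 CPM, among them Gad2 at 130 ± 63.0 CPM. Oligodendrocyte markers, among them Mbp, summed to 878, 739 and 1208 CPM. Endothelial and pericyte markers, led by Rgs5 and Flt1, summed to 415, 914 and 315 CPM. Mossy cell markers, led by Ajap1 and Calcrl, summed to 45.0, 70.8 and 27.1 CPM. With the highest marker of each list left out, the endothelial and pericyte sum took the order of Grm3 (44.8, 167 and 248 CPM). The microglial sum no longer had that order (3.30, 6.16 and 5.99 CPM). The interneuron sum, without Gad2, took the order of Grm2 (400, 268 and 263 CPM). Replicate 1 was also the shallowest library, with 8795 genes at 10 or more counts against 14252 and 12019 in replicates 2 and 3. The part of cell make-up or of depth in the switch was not tested.

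**Figure D3:**
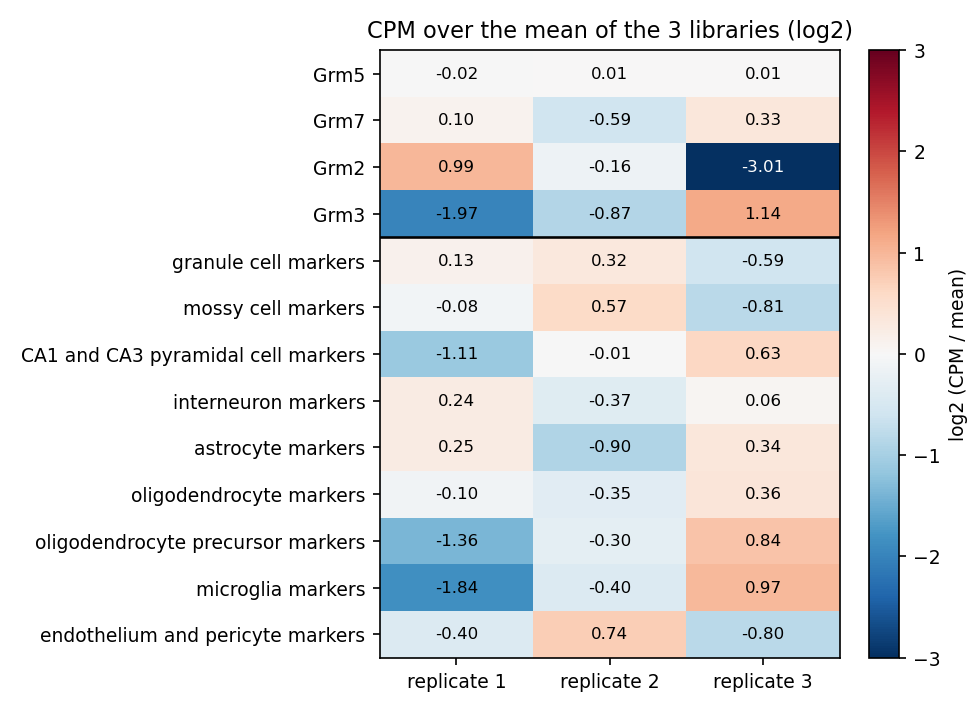
Library profile of the 4 highest members and of the summed markers of 9 cell types: CPM in each replicate over the mean of the 3 replicates, on the log2 scale (red higher, blue lower). Grm2 and Grm3 show opposite signs in replicates 1 and 3, while Grm5 stays within 0.02 of its mean.

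Of group III, Grm7 was the main member. It encodes a presynaptic receptor of low glutamate affinity and lies on chromosome 6 (110645581 to 111567230, plus strand). It had 300, 1006 and 972 counts, or 12.02, 7.46 and 14.1 CPM per kb, with replicate 2 lowest and 1.89-fold between the extremes. Its level of 0.91 (SE 0.54, adjusted p = 0.905, edgeR) did not pass the threshold, with values of 1.12, 0.23 and 1.20 in replicates 1 to 3. Its coefficient of variation of 30.4% was smaller than in most genes, with 15.5% of tested genes below it.

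Grm8 was low in every library. This presynaptic group III gene on chromosome 6 (27275119 to 28135178, minus strand) had 14, 160 and 68 counts, or 0.333, 0.706 and 0.588 CPM per kb. Its level of -3.48 (SE 0.88, adjusted p = 0.0183, edgeR) lay below the median gene in 3 of 3 libraries, and 1.35% of tested genes had a lower one. Leaving out replicate 1 ended the call (-2.78, adjusted p = 0.188), as did leaving out replicate 3 (-3.39, adjusted p = 0.0965, edgeR). It also ended with the length of the longest transcript, 4.80 kb in place of 9.90 kb for all exons (-2.89, adjusted p = 0.0605, edgeR), and with both looser filters on low counts. With 1 of these filters, 10 counts in 2 libraries, only 2 of 11211 genes were called below, against 237 of 8162 in the reported fit.

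Grm6 was not detected, and Grm4 was near the limit of detection in replicates 1 and 3 but not in replicate 2. Grm4, known for its high level in cerebellar granule cells, lies on chromosome 17 (27422387 to 27521403, minus strand) and had 2, 119 and 4 counts. Replicate 2 thus held nearly all of its reads and, at 0.869 CPM per kb, lay above Grm8 in the same library. Its level there was 5.20 CPM (95% exact Poisson interval 4.30 to 6.22, counting error only), against 0.472 CPM (0.0571 to 1.70) in replicate 1 and 0.342 CPM (0.0932 to 0.876) in replicate 3. The intervals of replicates 1 and 3 do not reach that of replicate 2. Such spread is common: with no filter, 13883 of 15591 genes varied beyond sampling noise, Grm4 among them (adjusted p = 3.3e-15, Poisson chi-square). Grm6 (chromosome 11, 50850685 to 50866208, plus strand) had 0 counts in each library, which allows up to 3 counts, or 0.130, 0.0242 and 0.0473 CPM per kb in replicates 1 to 3. As with Grm2, 599 exon bases of Grm6 overlap the opposite-strand gene Gm12660, and 130 of Grm7 overlap the opposite-strand gene Gm20387. Of the Grm8 exon bases, 96 overlap Mir592 on the same strand, where no strand setting could part the reads. Counts at these bases are uncertain. PCR copies are not independent molecules, so these limits cover counting error only.

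Neighbours in the order of levels were compared within each library, where the scaling cancels. With a prior count of 2 added, Grm5 exceeded Grm7 by 1.44 on the log2 scale (SD 0.48, n = 3), with 1.27, 1.98 and 1.06 in replicates 1 to 3. Grm3 exceeded Grm8 by 2.89 (SD 1.31), with 2.12, 2.15 and 4.40. Both differences were larger than their SD and held in 3 of 3 libraries. The lead of Grm3 over Grm8 depends on length: it was 1.26 with coding length and 1.19 with no length correction, within that SD. The other neighbours did not differ beyond their spread. Grm7 minus Grm2 was 1.19 (SD 2.30), with -0.35, 0.10 and 3.83. Grm2 minus Grm3 was 0.26 (SD 3.59). Grm8 minus Grm4 was 1.43 (SD 1.61) and rests on Grm4 counts of 2 and 4 in replicates 1 and 3. It too depends on length, at 2.10 with the longest transcript, 2.17 with coding length and 2.16 with no length correction, all beyond that SD. Without replicate 2 it was 2.10, and without replicate 3 it was 0.72. Of all 15 pairs among the 6 detected genes, 12 differed by more than their SD with 1 sign in all libraries. No test was run on these pairs, since with 3 libraries the smallest p of an exact sign-flip test is 0.25.

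As shares of the 7 members' counts per kb, Grm5 took 49.8% in replicate 1, 60.7% in replicate 2 and 51.0% in replicate 3, averaging 53.8% ± 6.02 (SD, n = 3). Grm7 took 20.6, 15.3 and 24.4%, Grm2 26.4, 14.2 and 1.66%, and Grm3 2.52, 6.47 and 21.9%. Grm8 took 0.572, 1.45 and 1.01%, and Grm4 0.135, 1.78 and 0.0987%. The mean share of Grm4, 0.673% ± 0.963, was 0.117% without replicate 2. Taken as a group, the group II pair had a steadier share (SD 4.16) than Grm2 (SD 12.4) or Grm3 (SD 10.2) alone. The group III share had an SD of 3.49, against 4.55 for Grm7, 0.438 for Grm8 and 0.963 for Grm4. Group I is Grm5 alone. Group II held 28.9, 20.7 and 23.5% and group III 21.3, 18.5 and 25.5%. The 7 genes summed to 58.3, 48.7 and 58.0 CPM per kb. With coding length in place of exon length the mean share of Grm5 was 64.4%.

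**Figure D4:**
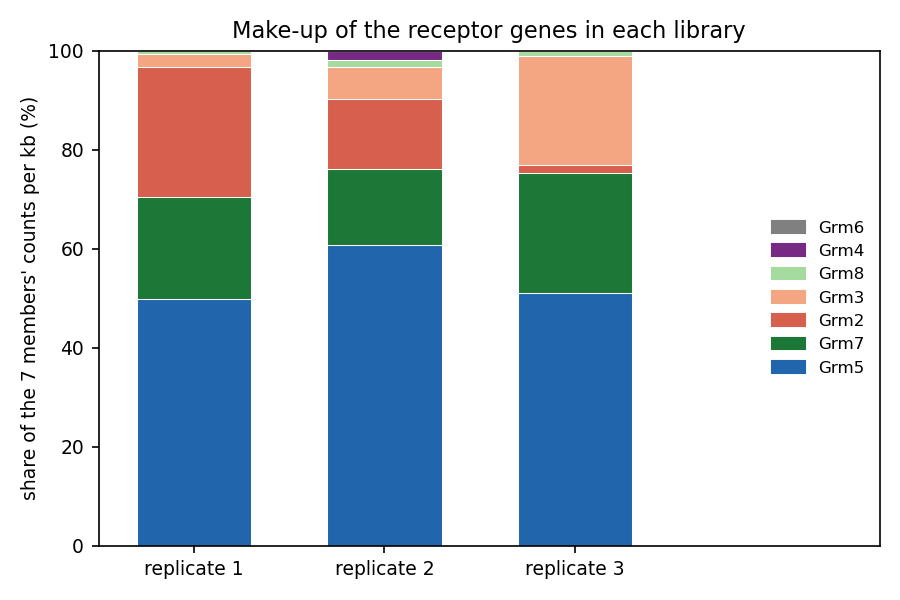
Share of each member in the summed counts per kb of the 7 genes (%), stacked for replicates 1 to 3. Grm5 takes between 49.8 and 60.7% in each library, and the Grm2 share in replicate 1 (26.4%) gives way to Grm3 in replicate 3 (21.9%).

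The partners through which these receptors act were read from 7 lists of 107 genes. Of the 77 partner genes tested, 30 lay above the median gene and 1 below, beside 13.5% and 2.9% of all tested genes, and their median level was 1.71. The same shares of all tested genes are the background for each list below. Of the scaffolds and effectors of group I, 8 of 19 tested genes lay above and 0 below (median level 1.98). Among them were the postsynaptic scaffold gene Shank1 at 185 ± 138 CPM per kb and Rgs4, which ends Gq and Gi signals, at 94.5 ± 45.3. Their levels were 5.002 and 3.98 (adjusted p = 4.6e-12 and 1.1e-08, edgeR). The G protein gene Gnaq and the phospholipase gene Plcb1 lay above too, at 3.11 and 2.79 (adjusted p = 2.5e-05 and 2.8e-04, edgeR). The scaffold genes that bind mGluR5 directly were not called: Homer1 lay at 1.03 and Homer2 at 2.06 (adjusted p = 0.852 and 0.0543, edgeR), and Homer3, the lowest of the list, had 0, 64 and 70 counts. Gnaq, Plcb1, Homer1 and Homer2 were chosen after their values were seen.

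Of the Gi/o effectors shared by groups II and III, 8 of 18 tested genes lay above the median gene and 0 below (median level 2.06). The Go gene Gnao1 reached 121 ± 9.01 CPM per kb, the Gi gene Gnai1 118 ± 86.3 and the beta subunit gene Gnb1 114 ± 50.3, with levels of 4.34, 4.25 and 4.25 (adjusted p = 3.4e-10, 3.0e-09 and 5.4e-10, edgeR). Gnao1 was even across libraries, but Gnai1 had 57.8, 508 and 543 CPM, far lower in replicate 1. The adenylyl cyclase gene Adcy3 was lowest, with 21, 125 and 8 counts. Of proteins that bind the receptors, 4 of 13 tested genes lay above and 0 below (median level 0.99), among them the calmodulin genes Calm2 and Calm3 at 1560 ± 1584 and 240 ± 127 CPM per kb. These have near-identical copies elsewhere in the genome, so their counts are uncertain. Pick1, the partner of the mGluR7 tail, was lowest with 4, 170 and 3 counts, a pattern near that of Grm4.

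Of the 6 genes of the retinal mGluR6 complex, 1 was tested and not called: Rgs11 had 429, 337 and 28 counts (level 0.73, adjusted p = 0.949, edgeR). Of the rest, Gng13 had 1, 0 and 0 counts, Nyx 1, 27 and 0, and Lrit3 none, beside a Grm6 with none. Among the other receptors of class C, the structural family that metabotropic glutamate receptors belong to, 3 of 4 tested genes lay above. They were the GABA-B receptor genes Gabbr1 at 43.6 ± 8.79 and Gabbr2 at 35.8 ± 12.6, and Gpr158 at 30.4 ± 8.49 CPM per kb, with levels of 2.88, 2.60 and 2.37 (adjusted p = 1.7e-04, 0.00219 and 0.00955, edgeR). Grm5, at 29.4 ± 0.342 CPM per kb, lay close to Gpr158. Gprc6a had 0 counts in each library.

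Of genes for glutamate transport and supply, 4 of 8 tested lay above and 0 below (median level 2.09). The uptake transporter gene Slc1a2 was highest at 175 ± 70.7 CPM per kb, followed by Glul, which makes glutamine, at 95.3 ± 50.2, with levels of 4.89 and 3.98 (adjusted p = 7.4e-12 and 9.8e-09, edgeR). Gls2 had 0, 22 and 1 counts. Of the ionotropic glutamate receptor genes, 3 of 14 tested (21.4%) lay above and 1 below, beside 13.5% and 2.9% of all tested genes. Those above were Gria3, Gria2 and Gria1 at 111 ± 25.4, 98.6 ± 25.5 and 84.1 ± 51.3 CPM per kb (levels 4.21, 4.06 and 3.86, adjusted p = 9.2e-10, 7.4e-09 and 3.5e-08, edgeR). Grin3b was lowest with 0, 0 and 8 counts. Grm5, at 29.4 ± 0.342 CPM per kb, lay below these 3 AMPA receptor genes and above the fourth, Gria4, at 10.7 ± 7.29, which was named after its values were seen.

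**Figure D5:**
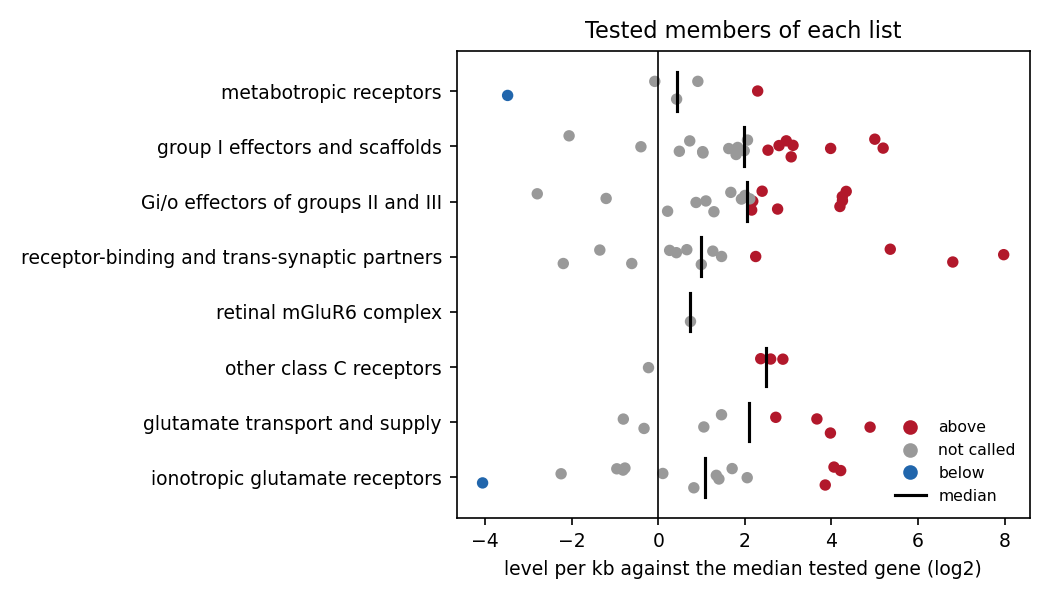
Level per kb against the library's median tested gene (log2) of each tested gene in the receptor family and in the 7 partner lists. Red points are called above, blue below and grey not called, and black bars give list medians; the receptor family has its median at 0.42, and the other lists between 0.73 and 2.48.

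The genes whose profile over the 3 libraries came closest to Grm5 were the ribosomal protein gene Rps29 at 25.2, 25.9 and 26.2 CPM, the transcription cofactor gene Tbl1xr1 at 118, 120 and 118, and Tiparp at 13.7, 13.8 and 13.5. Their Euclidean distances on the log2 scale were 0.018, 0.019 and 0.032. Closest to Grm7 were Tfrc, the transferrin receptor gene, Tpp2 and Neto2, at distances of 0.023, 0.031 and 0.038; Neto2, an auxiliary subunit of kainate receptors, had 99.0, 63.0 and 115 CPM. Over only 3 libraries many genes come this near: of 6887 genes compared, 131 lay within 0.2 of Grm5 and 90 within 0.2 of Grm7.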

How the data were processed

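Per the labels' protocols, dentate gyrus was homogenised, polysomes carrying the tag were captured on beads with antibodies against EGFP, and their RNA was purified. The deposited files hold raw counts per gene symbol, 1 file per library, and were not normalised. Tools were STAR 2.0.0e and HTSeq with build mm10, per the submitters' processing notes; for annotation, strand setting and filters: not given in the sources used here.

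Lines of the counter's summary were left out. Genes held 16.3% of the listed reads in replicate 1, 38.2% in replicate 2 and 21.1% in replicate 3. TMM factors (0.793, 1.19 and 1.06) came from edgeR 4.0.16 in R 4.3.3, with filterByExpr for 1 group, which kept 8510 genes; 8162 of them had an exon length in GENCODE vM21 (GRCm38) and were tested. That annotation may not be the one behind the counts. Levels were tested with edgeR's quasi-likelihood fit, intercept only, with offsets for library size, exon length and the library's median tested gene. The SE of a level comes from this fit and is not the SE over the levels of the 3 libraries. The SD of those levels was 0.088 for Grm5, 0.54 for Grm7, 2.09 for Grm2, 1.49 for Grm3 and 0.44 for Grm8. The quasi-likelihood and threshold steps were written out, since edgeR's own functions need a second coefficient, and were tested on simulated data. P-values were Benjamini-Hochberg adjusted over all tested genes. Spread was tested by Poisson chi-square against the effective library sizes. A count of 0 allows up to 3 counts.

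The members and lists were chosen with earlier results of these data known. Named were all members, the 3 highest and the 1 lowest gene of each partner list per kb, the 2 highest markers of each cell type, and the 3 tested genes of at least 10 CPM nearest in profile to the 2 highest members; exceptions are marked, and markers named beyond these for being at 0 or for their order of libraries were chosen after their values were seen; some genes that this rule takes are not reported here. Alternatives were DESeq2 1.42.0 size factors, limma 3.58.1 with prior counts of 2 and 0.5, other filters, lengths and library sizes, thinning to replicate 1, a threshold of 0, and each replicate left out. Figures were drawn with matplotlib 3.10.9.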

Additional observations from a re-analysis of the deposited data

How the results depend on the processing

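The level tests rest on 3 libraries of uneven depth, and replicate 1 sets what passes the filter. The count of members above the median gene, 1 in the reported fit, was 3 with no filter on low counts (Grm5, Grm7 and Grm2), and between 0 and 1 with a replicate left out. The count below, also 1, was 0 with no filter, with 10 counts in 2 libraries, with the longest transcript and with no length correction, and between 0 and 1 with a replicate left out. A looser filter adds low genes and so lowers the median gene by construction: over all genes 3981 of 15591 lay above with no filter and 1788 of 11211 with 10 counts in 2 libraries, against 1105 of 8162. Below lay 387 of 15591 with no filter and 2 of 11211 with 10 counts in 2 libraries, against 237 of 8162. The latter setting thus called almost no gene below, and its lost Grm8 call is not particular to Grm8. With the longest transcript 245 of 8162 genes lay below, and with no length correction 297 of 8162. Partner genes above numbered 57 of 98 tested with no filter and 46 of 77 with a threshold of 0, against 30 of 77. Over all genes 2280 of 8162 lay above with a threshold of 0, against 1105. The mean share of Grm5 was 64.4% with coding length and 70.2% with no length correction. The sign of the Grm3 level turned with no filter (1.77) and with 10 counts in 2 libraries (0.57), and ran from -1.24 to 0.86 with a replicate left out. That of Grm2 turned with coding length (-0.36) and with limma at prior counts of 2 and 0.5 (-0.34 and -0.35), and ran from -0.19 to 1.08 with a replicate left out. The Grm2 levels in replicates 1 to 3 were 1.47, 0.13 and -2.64. The edgeR level is fitted to counts and is not the mean of these log2 values. The cause of the turns was not tested. DESeq2 size factors left the level tests as they were by construction, since each level is set against the same library's median gene. They made Grm8 lose its spread call (adjusted p = 0.197, Poisson chi-square), as did leaving out replicate 1 (adjusted p = 0.202, Poisson chi-square). Without replicate 1, 3 members varied beyond sampling noise in place of 4. Fewer of all tested genes varied then too, 9179 of 10767 against 7957 of 8162 in the reported fit. With no filter Grm4 lay at -2.50 (adjusted p = 0.481, edgeR). No paired analysis was possible because the labels give 1 group.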

Other observations

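Among the marker genes, 1 ran close to each group II receptor gene, both chosen after their values were seen. C1ql2, which encodes a secreted synaptic organiser of mossy fibres, had 608, 1482 and 103 counts in replicates 1 to 3, which is 1.91, 1.90 and 1.87 times the Grm2 count. Of all tested genes 1 lay nearer to Grm2 in profile than C1ql2 did. The granule cell list did not follow as a whole: Prox1 and Plk5 were also highest in replicate 1 and lowest in replicate 3, 3 of 10 markers with C1ql2, beside 20.5% of tested genes, while Dsp and Lct had the opposite order; these markers and those below were also named after their values were seen. S100b, a calcium-binding protein of astrocytes, had 14, 169 and 309 counts, or 0.737, 0.768 and 0.684 times the Grm3 count, and 5 tested genes lay nearer to Grm3. Among astrocyte markers Aqp4 and Fgfr3 shared its order of libraries, 3 of 10 with S100b, beside 22.6% of tested genes, whereas Slc1a3, at 112, 32.5 and 170 CPM, did not. The order of Grm3 was also that of 6 of 10 markers of CA1 and CA3 pyramidal cells and of 3 of 6 of oligodendrocyte precursors, where Cspg4 had 13, 122 and 339 counts, while Sox10 and Gpr17 of the same 6 had the order of Grm2. With 3 libraries these profiles hold few independent values, and they show no shared cell of origin.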
